A study of Mus musculus with 2 samples.

Results

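A set of 10 genes that receive, assist or block bone morphogenetic protein (BMP) signals was examined for open chromatin in nuclei of mouse hepatic stellate cells. They are the type I receptor genes Bmpr1a, Acvr1 and Acvrl1, the type II receptor genes Bmpr2 and Acvr2a, the coreceptor gene Eng (endoglin), the pseudoreceptor gene Bambi, and the secreted antagonist genes Nog (noggin), Fst (follistatin) and Grem1 (gremlin 1). The 10 genes were taken by name from 21887 protein-coding genes. ATAC-seq, in which Tn5 transposase inserts adapters into accessible DNA, was run on 2 libraries of 1 group, replicates A and B, so no condition is compared with another. Both came from healthy chow-fed mice of strain C57BL6/JBomTac. The mice carried the allele Gt(ROSA)26Sortm1(mCherry-Rpl10a-Flop)Kra and the transgene Tg(Lrat-cre)1Rshw (B6.Cg). Nuclei from liver were sorted by the mCherry-RPL10A tag. The sorted nuclei are those in which the Lrat-cre transgene had switched on the tag, and no age is used here. The labels do not say whether A and B are separate animals, so their differences may be technical. Peaks of B have names starting with the word oil, although the library is labelled control.

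BMP dimers bind a complex of type I and type II serine/threonine kinase receptors. The type II receptor phosphorylates the type I receptor, which then phosphorylates the SMAD proteins that enter the nucleus. Endoglin presents BMP9 and BMP10 to the type I receptor ALK1, the product of Acvrl1, and both are best known from endothelial cells. BAMBI resembles a type I receptor without a kinase domain and dampens signalling, in stellate cells that of TGF-beta. Noggin, follistatin and gremlin bind the ligands outside the cell.

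A replicated peak is an entry of A that overlaps an entry of B by at least 1 bp. A locus spans the gene body and 20 kb of flank on each side in mm10. A start is a start site of the RefSeq promoter table with 500 bp on either side. For genes without a listed start site, among them Acvrl1, Bambi, Nog and Fst, both gene ends took its place. All 5 receptor genes, Eng and Bambi had a replicated peak in the locus, and the 3 secreted antagonist genes had no entry of either replicate. Eng held 8 of the 23 replicated peaks, the receptor genes 14 together and Bambi 1. Thus 7 of 10 genes (70%) had a replicated peak in the locus, where 64.6% of all protein-coding genes did. A replicated peak lay at the start of 4 of 10 genes (40%), Bmpr1a, Acvr1, Acvr2a and Eng, where 41.4% of protein-coding genes had one. Both shares are near those of all genes, and what follows concerns the single loci. No locus shared a peak with another. A peak in a bulk library does not tell apart how many nuclei are open from how open each one is.

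**Figure D1:**
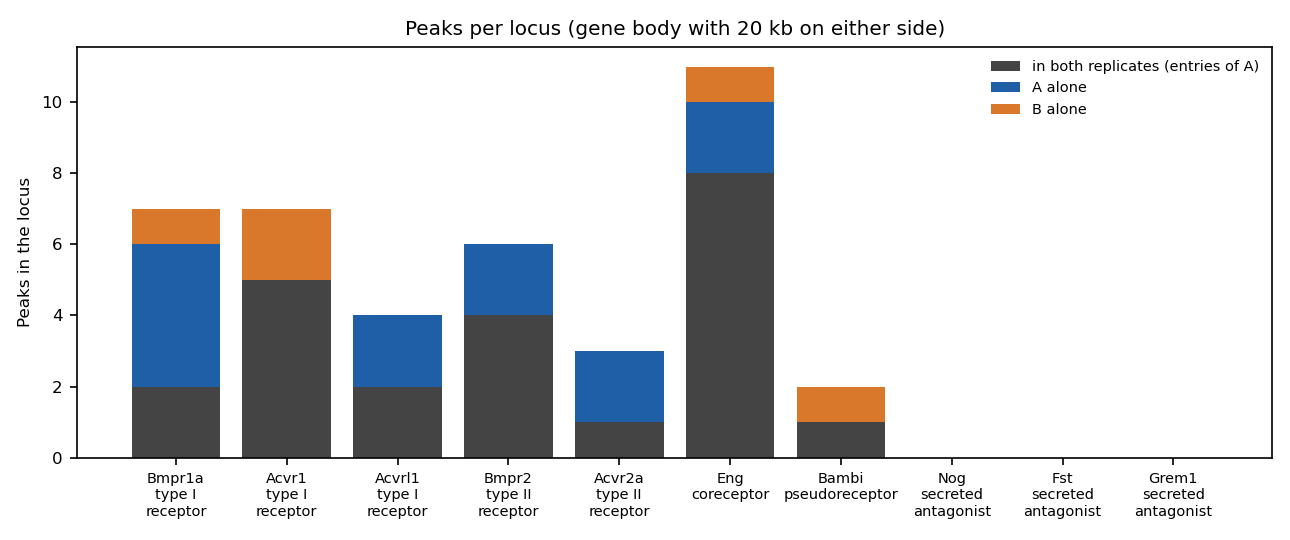
Number of ATAC-seq peaks in the locus of each of the 10 genes, split into peaks of both replicates (dark), of A alone (blue) and of B alone (orange). Eng has the most replicated peaks, 8, and the bars of Nog, Fst and Grem1 are at 0.

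The promoter table of RefSeq (GRCm38.p6, the assembly of mm10) matched 6 of the 10 genes: Bmpr1a, Acvr1, Bmpr2, Acvr2a, Eng and Grem1. Its windows run from 250 bases before to 50 bases after the start. The windows of 5 genes are shown because 3 of them are crossed by a replicated peak and the others are not. They are given 5′ to 3′ on the strand of the gene, and capitals mark the bases that lie inside the entries of both replicates. Bmpr1a is at chr14:34502497-34502796 on the minus strand, with 215 such bases. Acvr2a is at chr2:48813859-48814158 on the plus strand, with 229. Eng is at chr2:32646345-32646644 on the plus strand, with 225. Bmpr2, at chr1:59764029-59764328 on the plus strand, and Grem1, at chr2:113758599-113758898 on the minus strand, have none and stand in lower case throughout.
Bmpr1a: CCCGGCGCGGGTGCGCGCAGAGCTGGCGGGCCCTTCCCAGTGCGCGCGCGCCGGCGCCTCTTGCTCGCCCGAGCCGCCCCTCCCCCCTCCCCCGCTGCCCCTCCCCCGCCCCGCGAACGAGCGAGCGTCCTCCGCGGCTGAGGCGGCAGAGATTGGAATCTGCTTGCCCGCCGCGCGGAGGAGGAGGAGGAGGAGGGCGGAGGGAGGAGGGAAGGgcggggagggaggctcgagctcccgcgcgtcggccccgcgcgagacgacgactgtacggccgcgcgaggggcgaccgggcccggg
Acvr2a: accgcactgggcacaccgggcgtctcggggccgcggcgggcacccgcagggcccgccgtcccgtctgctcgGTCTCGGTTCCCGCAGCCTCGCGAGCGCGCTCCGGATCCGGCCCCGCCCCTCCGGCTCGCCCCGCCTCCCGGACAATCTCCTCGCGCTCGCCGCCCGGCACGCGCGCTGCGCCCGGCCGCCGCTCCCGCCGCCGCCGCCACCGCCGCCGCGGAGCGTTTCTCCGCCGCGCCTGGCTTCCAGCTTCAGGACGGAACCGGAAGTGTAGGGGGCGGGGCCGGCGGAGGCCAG
Eng: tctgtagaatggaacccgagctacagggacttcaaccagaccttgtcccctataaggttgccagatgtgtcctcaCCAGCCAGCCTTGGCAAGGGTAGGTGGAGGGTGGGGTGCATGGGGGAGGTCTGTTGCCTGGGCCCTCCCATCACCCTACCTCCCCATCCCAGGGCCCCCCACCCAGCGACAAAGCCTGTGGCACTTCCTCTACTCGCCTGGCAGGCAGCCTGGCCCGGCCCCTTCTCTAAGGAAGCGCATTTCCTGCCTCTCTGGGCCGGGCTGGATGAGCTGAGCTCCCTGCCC
Bmpr2: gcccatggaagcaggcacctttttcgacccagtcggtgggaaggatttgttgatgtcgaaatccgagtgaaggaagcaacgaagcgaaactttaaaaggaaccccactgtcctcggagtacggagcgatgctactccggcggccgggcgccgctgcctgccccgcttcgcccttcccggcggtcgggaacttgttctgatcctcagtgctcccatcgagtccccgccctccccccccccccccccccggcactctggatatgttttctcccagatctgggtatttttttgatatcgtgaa
Grem1: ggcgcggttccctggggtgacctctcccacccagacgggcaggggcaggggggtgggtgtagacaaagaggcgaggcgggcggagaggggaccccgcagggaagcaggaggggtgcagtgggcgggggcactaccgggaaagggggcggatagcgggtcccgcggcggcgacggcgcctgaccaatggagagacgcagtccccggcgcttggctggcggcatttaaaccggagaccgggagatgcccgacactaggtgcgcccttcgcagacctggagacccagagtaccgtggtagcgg

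These windows differ in base composition. The Eng window holds 6 CpG dinucleotides in 300 bases, against 48 in Bmpr1a, 54 in Acvr2a, 51 in Acvr1, 23 in Bmpr2 and 28 in Grem1. Windows of protein-coding genes had a median of 13, and 37.4% of the 21263 windows were touched by a replicated peak. That share was 12.7% in the decile of CpG count that holds Eng, and 60.6% in the decile that holds Bmpr1a, Acvr1 and Acvr2a. It was 69.3% in the decile of Bmpr2 and 68.9% in that of Grem1. The Eng window thus had a peak in a class of windows that mostly had none. Those of Acvr1, Bmpr2 and Grem1 had none in classes that mostly had one. The replicated peak counted at the start of Acvr1 lay within 500 bp of the start but outside this window. The Bmpr2 window lay 512 bp and the Acvr1 window 84 bp from the nearest replicated peak, and the Grem1 window 89758 bp.

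**Figure D2:**
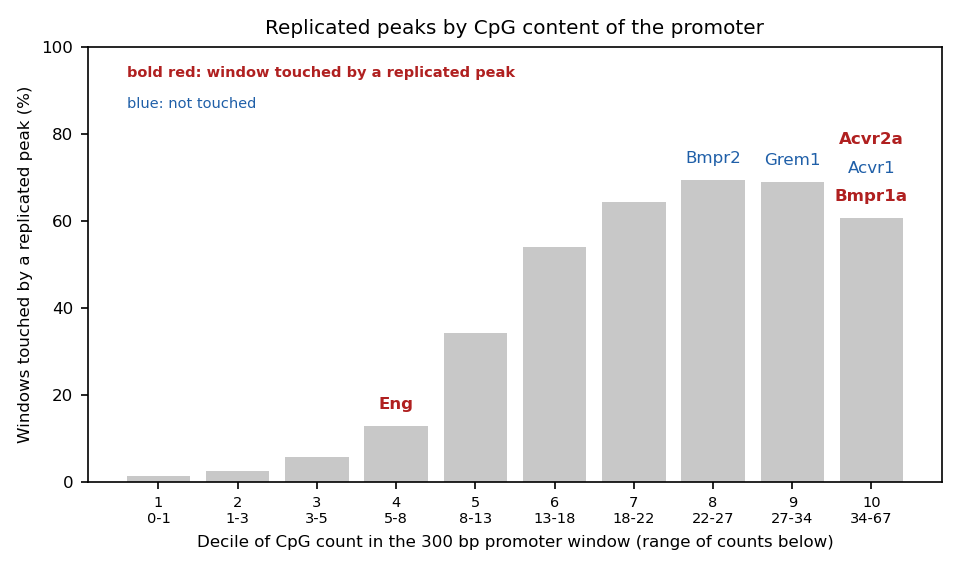
Share of promoter windows of protein-coding genes that are touched by a replicated peak (y axis, percent) in each decile of CpG count (x axis). Names mark the deciles of 6 genes, in bold red where the window is touched: Eng stands in a decile with 12.7% touched, and Grem1, which is not touched, in one with 68.9%.

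Short motifs were searched on both strands of the 6 windows. GGCGCC, the core of the GC-rich element that BMP SMADs bind, occurred in Bmpr1a, Bmpr2 and Grem1, where 11.9% of all 32851 promoter windows and 22.8% of those touched by a replicated peak hold it. In Bmpr1a its first base was at position -198, counted from the start site at 0, inside the entries of both replicates. GGAAGT, an ETS motif, occurred in Acvr2a at position 17 and in Eng at position -53, both inside the entries, against 23.8% of all windows and 30.7% of those touched. TTGGCA, one arm of the palindrome that NFI factors bind, occurred in Eng alone of the 6, at position -165, against 14.1% of all windows and 10.6% of those touched. GGGCGG, the GC box, occurred in all windows but that of Eng, against 35.7% of all windows and 71.3% of those touched by a replicated peak. None of the 6 held TGANTCA (AP-1, in 7.81% of all windows and 4.09% of those touched), AGATAA (bound by GATA factors, in 11.2% and 4.8%) or CACGTG (an E-box, in 7.15% and 11.1%). No match of one motif overlapped a match of another in the 6 windows.

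Among the type I receptor genes, Bmpr1a, which encodes the BMP receptor ALK3, was open at its start. This gene lies on chromosome 14 from 34411061 to 34503336. The peak at 34502534 to 34502925 had a fold enrichment (the authors' value over local background) that was 13.2 in A and 15.0 in B. It stood among the strongest 27% of the entries of A and 15.3% of those of B. The other replicated peak lay 18.6 kb into the gene at 34483805 to 34483985, enriched 6.08-fold in A and 5.95-fold in B, near the weak end of both lists. Bmpr1a also had 4 entries in A alone and 1 in B alone, the most unreplicated entries of the 10 loci. One of A at 34467642 and that of B at 34466412, both inside the gene, were 1.05 kb apart without overlap.

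Acvr1, which encodes the type I receptor ALK2, had 5 replicated peaks on chromosome 2 around 58446438 to 58566828. The strongest lay 34.4 kb into the gene, at 58532247 to 58532674, enriched 13.0-fold in A and 13.4-fold in B. Other intragenic peaks lay 16.1 kb from the start, enriched 8.27-fold in A and 8.11-fold in B, and 71.3 kb from it, enriched 10.7-fold in A and 8.05-fold in B. A pair of peaks lay upstream of the start of Acvr1, and no replicated peak covered it. The nearer one, at 58567162 to 58567364, began 334 bp before the start and had 11.5 in A and 9.82 in B. The farther one, at 58567564 to 58567734, had 7.69 in A and 9.19 in B. Both lie at a start of Upp2, a uridine phosphorylase gene, and touch its annotated span. Counted only to the nearest gene, Acvr1 kept 3 replicated peaks.

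Acvrl1, which encodes ALK1, had 2 replicated peaks on chromosome 15, where the gene runs from 101128522 to 101145336. One lay inside the gene at 101139903 to 101140138, enriched 10.9-fold in A and 11.9-fold in B. The other lay 2.6 kb outside its higher end at 101147921 to 101148118, enriched 10.1-fold in A and 11.1-fold in B. Between them A alone had an entry inside the gene, with 8.07, and one within 500 bp of the higher end, with 8.76. Neither annotated end of Acvrl1 had a replicated peak.

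Of the type II receptor genes, Bmpr2 had 4 replicated peaks and Acvr2a 1. Bmpr2, which encodes the main type II receptor of BMPs, lies on chromosome 1 from 59764279 to 59878081. Its strongest peak lay deep in the gene, 69.6 kb from the start at 59833796 to 59834096, enriched 17.3-fold in A and 19.1-fold in B. In B it was among the strongest 4.51% of entries, and in A among the strongest 11.4%. The other intragenic peaks of Bmpr2 lay 7.8 kb from the start, enriched 13.3-fold in A and 9.66-fold in B, and 40.2 kb from it, enriched 7.80-fold in A and 7.59-fold in B. The peak nearest to the start ended 762 bp before it, at 59763270 to 59763517, enriched 9.71-fold in A and 9.55-fold in B, outside the window that defines a start. Acvr2a, which encodes a type II receptor shared by activins and BMPs, had its one replicated peak on the start, on chromosome 2 at 48813930 to 48814241. That peak was weak, enriched 6.25-fold in A and 8.63-fold in B, and in A 93.7% of entries were as strong or stronger. A alone had 2 more entries at Acvr2a, with 6.77 and 8.88.

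**Figure D3:**
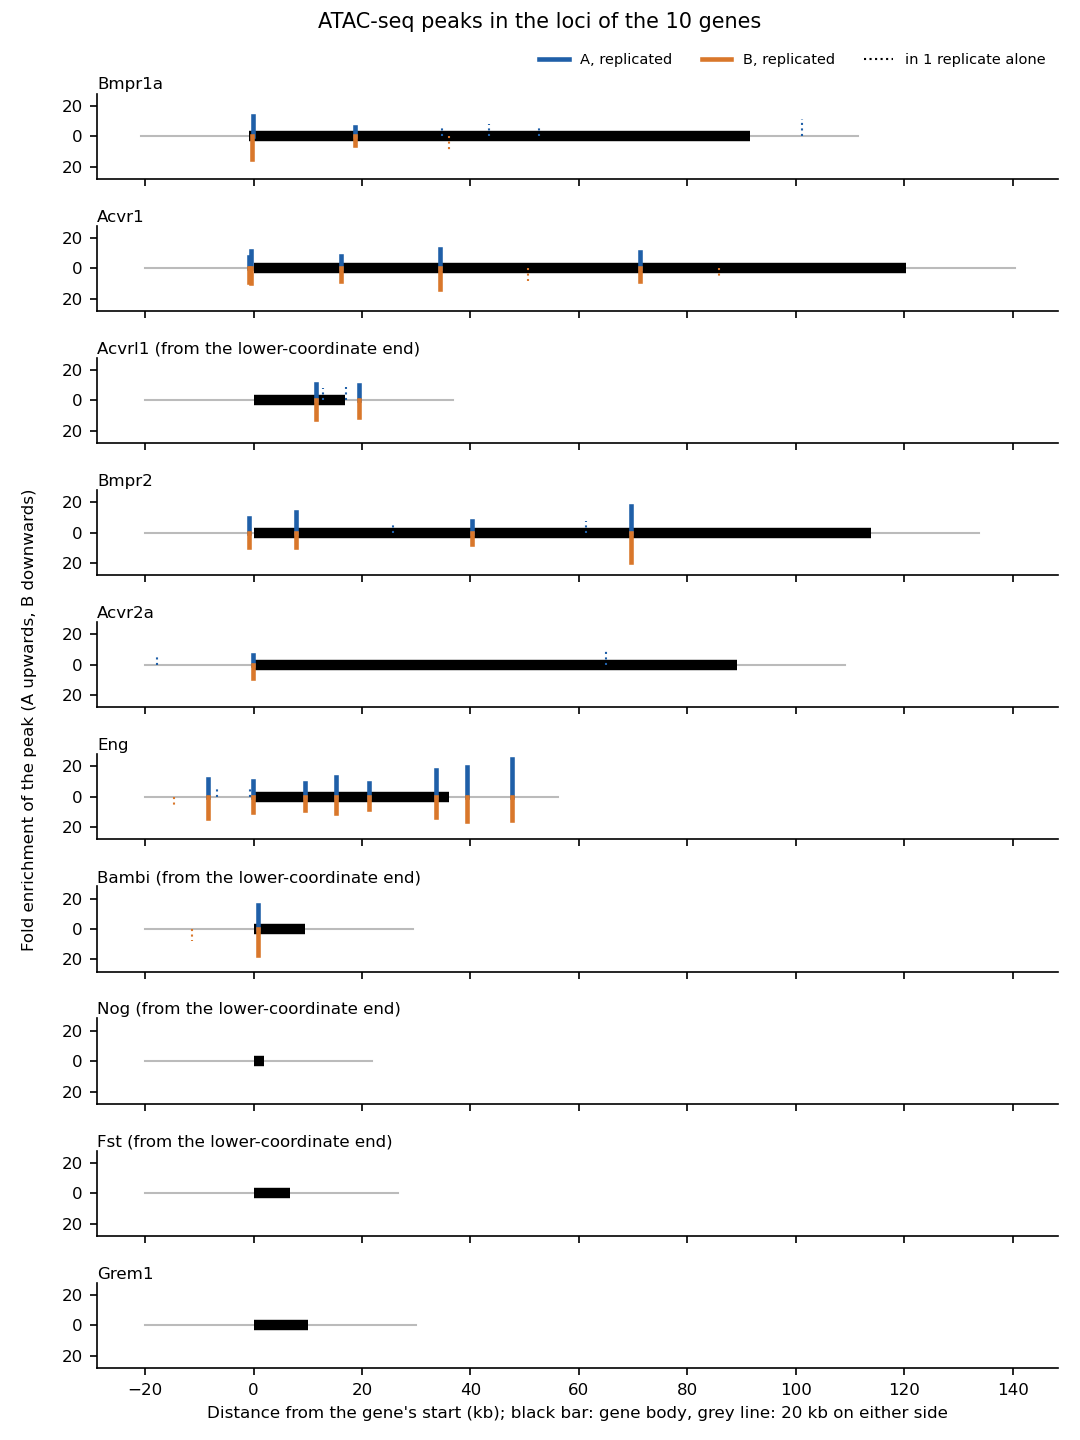
Position of every peak of A (blue, upwards) and B (orange, downwards) in the 10 loci, as distance from the start of the gene in kb, or from its lower-coordinate end where no start site was matched, with the height giving the fold enrichment. Replicated peaks are solid and peaks of 1 replicate dotted; Eng shows 8 replicated peaks spread from -8.5 kb to 47.7 kb, and Nog, Fst and Grem1 show none.

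Eng had 8 replicated peaks in a locus of 76.1 kb, or 10.5 per 100 kb, where the median protein-coding locus had 1.57 per 100 kb. Of all protein-coding genes 1.22% had 8 or more, and of the 2188 genes with loci of 75.9 to 97.1 kb 0.594% did. Eng lies on chromosome 2 from 32646595 to 32682669. One peak covered its start at 32646420 to 32646710, enriched 10.2-fold in A and 10.1-fold in B. Another lay upstream, with its summit at -8.5 kb from the start, at 32637997 to 32638345, enriched 11.8-fold in A and 14.1-fold in B. This upstream peak lay nearer to the neighbouring gene Ak1 than to Eng.

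Inside Eng were 4 peaks, at 9.4, 15.2, 21.3 and 33.7 kb from the start. The one at 32655836 to 32656140 was enriched 9.05-fold in A and 8.56-fold in B, and that at 32661692 to 32662028 was enriched 12.8-fold in A and 10.5-fold in B. The one at 32667772 to 32667997 had 9.29 in A and 8.28 in B. The strongest inside the gene, at 32680106 to 32680404, had 17.6 in A and 13.0 in B. The 2 strongest of the locus lay beyond the gene, inside Fpgs, which encodes folylpolyglutamate synthase. One at 32685830 to 32686176, 3.2 kb beyond Eng and away from the start of Fpgs, had 19.9 in A and 15.8 in B. The other, at 32694061 to 32694435, lay on the start of Fpgs, enriched 24.9-fold in A and 15.5-fold in B. Without peaks nearer to another gene Eng kept 5 replicated peaks, and with the gene body alone 5.

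Bambi had a single strong peak. The gene lies on chromosome 18 from 3507011 to 3516404, and the peak at 3507678 to 3508011 began 667 bp inside its lower end. It was enriched 15.5-fold in A and 16.8-fold in B, among the strongest 16.9% of entries in A and 9.46% in B. It was still replicated among the 10000 entries of each list with the highest −log10 q. B alone had a further entry 11.4 kb outside Bambi, with 8.0.

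The secreted antagonist genes were without any peak. No entry of A or B touched the locus of Nog (chromosome 11 from 89300638 to 89302559), Fst (chromosome 13 from 114452262 to 114458989) or Grem1 (chromosome 2 from 113748675 to 113758648). Of all protein-coding genes 27.2% likewise had no entry of either replicate. These loci are short, at 41.9, 46.7 and 50 kb, and among genes in the same decile of locus length 47.5%, 38.7% and 31.3% had no replicated peak. The nearest replicated peak lay 239.7 kb from Nog, on the start of Dgke, a diacylglycerol kinase gene. It lay 359.1 kb from Fst, on the start of Mocs2, a molybdopterin synthase gene, and 90.0 kb from Grem1, on the start of Arhgap11a. B alone had an entry 218.6 kb from Nog and one 190.4 kb from Fst. With 50 kb on either side the 3 loci still held no replicated peak. The lists hold peaks above a threshold, so accessibility below it is not measured.

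**Figure D4:**
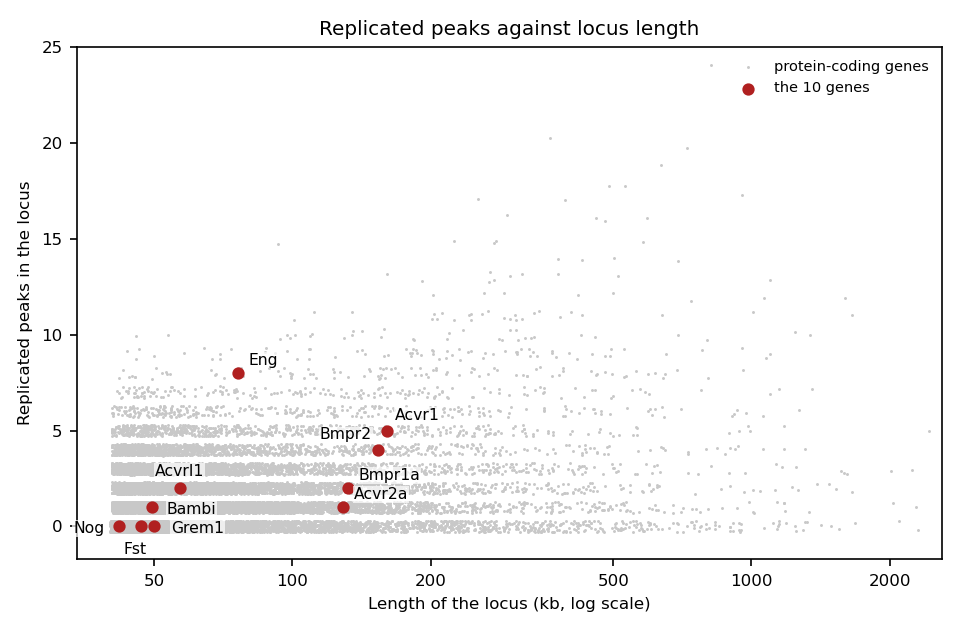
Replicated peaks per locus (y axis) against locus length (x axis, kb, log scale) for protein-coding genes (grey, spread vertically by up to 0.3 for display) and for the 10 genes (red). Eng, with 8 peaks in 76.1 kb, lies above most loci of its length, and the other genes lie between 0 and 5.

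The other genes differed less from loci of like length. Of genes in the same decile of locus length, 21.4% had at least the 5 peaks of Acvr1 and 28.1% at least the 4 of Bmpr2. The shares were 48.0% for the 2 of Bmpr1a, 45.5% for the 2 of Acvrl1, 76.5% for the 1 of Acvr2a and 68.7% for the 1 of Bambi.

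In position, 13 of the 23 replicated peaks (56.5%) lay in a gene body away from the start, 4 (17.4%) at the start and 6 (26.1%) in a flank. Of the peaks at no start of their own, 2 lay at the start of a neighbour, Upp2 or Fpgs. Median fold enrichment over these peaks was 10.9 (A) and 10.1 (B), against 11.9 (A) and 10.4 (B) over all replicated entries. Their median width was 291 bp in A and 276 bp in B, against 268 and 242 bp. Fold enrichment in A and B followed each other over the 23 peaks, with a Spearman rho of 0.85, and over all 23641 overlapping pairs rho was 0.68. These are correlations across peaks of the same libraries, which are not independent replicates. The ratio of B to A had a median of 0.98 over the 23 peaks and 0.899 over all pairs. It was lowest on the start of Fpgs in the Eng locus, at 0.624, and highest on the start of Acvr2a, at 1.38, both inside the range from 0.562 to 1.41 that holds the central 90% of all pairs. Values are not scaled between the libraries.

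**Figure D5:**
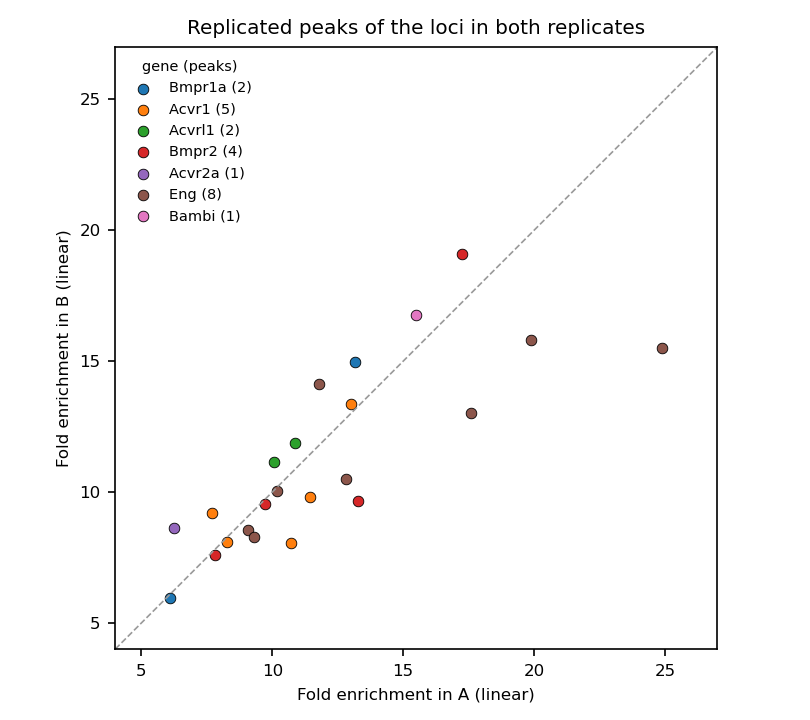
Fold enrichment in A (x axis) against B (y axis), both linear, for the 23 replicated peaks, coloured by gene, with the dashed line marking equal values. The peak farthest from the line is the strongest of the Eng locus in A, enriched 24.9-fold in A and 15.5-fold in B.

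Of 35 entries of A in the 10 loci, 23 (65.7%) were replicated, where 64.1% of all entries of A were. Of 28 entries of B, 23 (82.1%) were, where 81.7% of all were. The 12 entries of A alone had a median fold enrichment of 7.26, ranging between 5.71 and 11.0, against 10.9 for the replicated ones. The 5 of B alone had a median of 8.0, between 6.31 and 10.1. With A alone the 10 loci would thus hold 35 peaks rather than 23.

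Other genes of the pathway were taken from lists of 54 genes. A replicated peak lay in the locus of 40 (74.1%) and at the start of 23 (42.6%), against 64.6% and 41.4% of protein-coding genes. Of 8 ligand genes 7 had one in the locus, with a median of 2 per gene. Bmp10 and Gdf2, which encode the ligands BMP10 and BMP9 of the ALK1 and endoglin complex, had 5 and 3, including one at a start of each. Only 2 of the 5 and 1 of the 3 lay in the gene body, the others in the flanks. Bmp5 had 3. Bmp7 had none. Of 7 other receptor genes of the family 6 had one, led by Tgfbr2 with 4, Tgfbr1 with 3 and Acvr2b with 2, while Bmpr1b, the type I receptor gene closest to Bmpr1a, had no entry in 372.5 kb.

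Among 7 other coreceptor genes, 3 had a replicated peak: Tgfbr3, which encodes betaglycan, the relative of endoglin, with 9, and the repulsive guidance genes Rgmb and Rgma with 1 each. Neo1 and Cfc1 had none. Of 14 other secreted antagonists and modulators 8 (57.1%) had one in the locus and 3 (21.4%) at the start, with a median of 1. Bmper and Twsg1 had 5 each and Fstl1, a follistatin relative, had 4, whereas Chrdl1 had no replicated peak. All those of Bmper and Fstl1 but only 1 of the 5 of Twsg1 lay in the gene body. The absence at Nog, Fst and Grem1 thus did not extend to all secreted modulators. All 8 SMAD and SMAD-inhibitor genes had a replicated peak in the locus, and 7 had one in the gene body. The inhibitory Smad6 led with 6 and Smad7 with 4, then Smad9 with 2, both outside the gene. Of 10 target genes 8 had one, led by Atoh8 and Runx2 with 4 each and Id2 with 3, while Msx2 and Hamp had none. Only 1 of the 4 of Atoh8 and 1 of the 3 of Id2 lay in the gene body. A start was open at 6 of the 10, among them Id1, Id2, Id3 and Id4, which were named after their values were seen.

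The sorted population was set beside marker genes of liver cell types. These lists were chosen with earlier results of these data known, so they are no independent check. Of all protein-coding genes 64.6% had a replicated peak in the locus and 41.4% one at the start. All 20 stellate cell marker genes had a replicated peak in the locus, with a median of 4 and up to 12, at Reln, and 18 had one at the start. Of 18 sinusoidal endothelial markers 8 had one in the locus, with 16 peaks in all, and 2 had one at the start. Stab1 had 5, all outside the gene, Gpr182 had 3, and Pecam1 and Egfl7 had 2 each. Kdr, Clec4g, Sox18 and Esam had 1 each. Those of Egfl7 and Sox18 also lay outside the gene, and the markers with a peak at the start were Gpr182 and Esam. The 10 without a replicated peak were Cdh5, Tek, Tie1, Lyve1, Erg, Emcn, Ptprb, Stab2, Oit3 and Fcgr2b. Eng and Acvrl1 are known from endothelial cells, and the part of such nuclei in their peaks was not tested. Of 10 hepatocyte markers 3 had a replicated peak, of 10 Kupffer and myeloid markers 2 and of 8 cholangiocyte markers 1, and none had one at its start.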

How the data were processed

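Per the labels' protocols, dounced liver nuclei were cleaned on a density gradient, sorted on mCherry-RPL10A and treated with Tn5 transposase. Each replicate has 1 peak list, with 36577 entries in A and 28794 in B. Per the submitters' processing notes, MACS2, HOMER, STAR 2.7.0, SAMtools, Picard and bedtools were used on mm10, with no role given. Filters and a Tn5 shift are not stated in the sources used here. As for units, the authors deposited for each peak a score, a fold enrichment (a linear ratio over local background), −log10 p-values and q-values, and a summit offset. Entries had a −log10 q of at least 3.04 (A) and 3.00 (B). The lists hold no read counts, so depth is unknown.

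Overlaps were counted in Python 3.11.15 with numpy 2.4.6 and pandas 2.3.3, after a check on simulated intervals. Gene spans and promoter windows are RefSeq GRCm38.p6, and positions are 1-based. Of protein-coding genes 79.9% have a start site in the promoter table; for the others, among them Acvrl1, Bambi, Nog and Fst, both gene ends were used. No genome was used here, so only promoter windows are shown as sequence. All 10 genes are described, with every replicated peak. Of each pathway list up to 3 genes with the most replicated peaks and up to 2 without are named, and of the marker lists only some. The genes and lists were chosen with earlier results of these data known. With 1 group there is no test, and no p-value is given.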

Additional observations from a re-analysis of the deposited data

How the results depend on the processing

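The 23 replicated peaks of the 10 loci became 12 when entries at or below the median −log10 q of their list were dropped. They became 8 with the 10000 strongest entries of each list, ranked here by −log10 q and not by fold enrichment. With 50 kb on either side they became 36. With 1 replicate left out, that is with all entries of the other, the count ran from 28 to 35. The number of genes with a replicated peak was 7 under these settings except the 10000 strongest entries, where it was 4 (Acvr1, Bmpr2, Eng and Bambi), and the set above the median, where it was 6. The number with one at the start was 4, but 3 (without Acvr2a) in the set above the median and 1, Acvr1, with the 10000 strongest entries. It was 6 with a window of 2500 bp, which added Bmpr2 and Bambi, and 4 to 5 with 1 replicate left out. Reciprocal overlap of at least 50% removed 1 peak, inside Bmpr1a. Counting pieces of 1 peak once changed none of these counts. Of 100 counts per gene under the alternatives 75 stayed within 1.5 times, and 17 of the other 25 were lower. Nog, Fst and Grem1 had 0 under all of the alternatives, and these unchanged counts are part of the 75. No paired analysis was possible because the samples form 1 group.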
